A study of Mus musculus with 2 samples.

Results

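The genes described here are 36 interferon-stimulated genes, listed by symbol, whose transcripts are known to be induced by type I, II or III interferons. Of these, 35 had a row among the 32285 genes of the count matrices. Mx1, which encodes an antiviral GTPase, had no row of its own and was not analysed here. Symbols were matched exactly, and the UMIs (unique molecular identifiers, 1 per captured transcript molecule) of each gene were summed per cell and per leukocyte class.

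All measured cells came from kidneys of mice with the genotype given as B6 and the treatment given as AAN CKD, sampled at week 2. AAN, according to the series title, stands for aristolochic acid nephropathy, a toxic injury of the kidney tubule that leads to chronic kidney disease (CKD). CD45+ cells, that is leukocytes, were sorted from digested kidney and profiled as droplet single cells in 2 hashed samples, called hashed sample 1 and hashed sample 2 below. No untreated kidney was analysed here, so no value separates the response to the toxin from the steady state. The labels give all cells the same strain, treatment and week, and do not say whether the hashed samples were separate animals. The sample title also names W1 and a single mouse, a label field calls the cells mesenchymal stem cells, and the protocol speaks of human kidneys. The matrices carry mouse genes and leukocyte transcripts throughout. Spatial positions from a Visium section carry no expression values and were not used here.

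Interferons signal through cell-surface receptors coupled to JAK kinases and STAT factors. Type I interferons (alpha, beta) and type III interferons (lambda) act through the kinases JAK1 and TYK2 and assemble a complex that holds STAT2 and IRF9 and binds the interferon-stimulated response element, ISRE. Interferon gamma, made mainly by T and NK cells, acts through JAK1 and JAK2 on gamma-activated sites, GAS, and it induces IRF1, which in turn binds ISRE-like sites. In injured kidney, interferon-responsive macrophages and the chemokines CXCL9 and CXCL10, which attract T cells, are a known part of leukocyte infiltration.

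Promoters are shown for a choice of members that held an ISRE or GAS word. Members that held neither are counted below but not shown, and word content was not compared with expression levels. RefSeq promoter entries on GRCm38.p6 matched 28 of the 36 listed genes, and the 250 bases before the start were searched on both strands. The ISRE word was GAAA, 2 bases of any kind and GAAA again, which reads TTTC, 2 bases and TTTC on the other strand. The GAS word was TTC, 3 bases of any kind and GAA, which reads the same on both strands. Capitals mark these words, and each sequence reads 5′ to 3′ in the direction of its gene.
Isg15 (chr4:156200819-156201068, minus strand): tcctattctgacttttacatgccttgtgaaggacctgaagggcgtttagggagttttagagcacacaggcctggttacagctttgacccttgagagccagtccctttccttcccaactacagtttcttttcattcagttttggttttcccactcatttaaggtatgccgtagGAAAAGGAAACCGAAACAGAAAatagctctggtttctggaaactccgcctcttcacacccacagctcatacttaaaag
Ifit3 (chr19:34583279-34583528, plus strand): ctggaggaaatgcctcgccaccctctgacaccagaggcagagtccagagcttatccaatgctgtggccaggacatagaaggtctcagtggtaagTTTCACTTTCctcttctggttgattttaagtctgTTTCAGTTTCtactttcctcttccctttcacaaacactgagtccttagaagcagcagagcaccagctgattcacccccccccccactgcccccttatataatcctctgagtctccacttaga
Bst2 (chr8:71537473-71537722, minus strand): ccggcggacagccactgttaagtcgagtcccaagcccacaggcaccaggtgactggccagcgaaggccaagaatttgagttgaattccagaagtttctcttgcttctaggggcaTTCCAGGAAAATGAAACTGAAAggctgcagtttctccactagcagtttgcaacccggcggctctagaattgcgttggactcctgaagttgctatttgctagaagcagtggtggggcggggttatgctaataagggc
Gbp2 (chr3:142620413-142620662, plus strand): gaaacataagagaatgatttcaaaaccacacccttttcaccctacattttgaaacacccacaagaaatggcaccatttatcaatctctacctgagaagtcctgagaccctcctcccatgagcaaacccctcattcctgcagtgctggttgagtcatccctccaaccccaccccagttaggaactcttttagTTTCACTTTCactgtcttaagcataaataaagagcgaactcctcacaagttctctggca
Gbp5 (chr3:142496684-142496933, plus strand): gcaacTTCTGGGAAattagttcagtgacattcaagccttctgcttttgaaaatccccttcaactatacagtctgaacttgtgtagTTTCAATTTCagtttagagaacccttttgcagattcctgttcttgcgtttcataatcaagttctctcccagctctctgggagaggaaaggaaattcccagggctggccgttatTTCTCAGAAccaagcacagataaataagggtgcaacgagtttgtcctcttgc
Gbp7 (chr3:142530086-142530335, plus strand): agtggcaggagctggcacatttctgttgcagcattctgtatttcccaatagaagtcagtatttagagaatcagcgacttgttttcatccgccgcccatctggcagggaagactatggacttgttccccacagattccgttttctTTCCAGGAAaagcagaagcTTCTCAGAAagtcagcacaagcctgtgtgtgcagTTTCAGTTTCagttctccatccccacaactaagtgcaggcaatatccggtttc
Igtp (chr11:58199306-58199555, plus strand): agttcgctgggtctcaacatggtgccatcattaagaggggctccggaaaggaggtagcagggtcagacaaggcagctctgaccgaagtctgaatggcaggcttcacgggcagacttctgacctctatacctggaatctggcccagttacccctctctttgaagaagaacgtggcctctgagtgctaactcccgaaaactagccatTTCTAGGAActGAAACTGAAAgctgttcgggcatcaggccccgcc
Irf1 (chr11:53769764-53770013, plus strand): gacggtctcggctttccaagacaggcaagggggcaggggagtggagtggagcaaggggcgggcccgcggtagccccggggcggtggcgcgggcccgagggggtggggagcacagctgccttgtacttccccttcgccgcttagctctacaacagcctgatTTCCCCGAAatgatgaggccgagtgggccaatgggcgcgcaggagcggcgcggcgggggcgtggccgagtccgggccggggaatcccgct

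Distances here count the bases between the end of a word and the start. The Isg15 promoter held 3 overlapping ISRE words, ending 68, 62 and 56 bases before the start. Ifit3 held 2. Bst2 held 2 that overlapped each other, at 120 and 114 bases before the start, and the first of them overlapped its GAS word, at 127. Gbp2 held 1 ISRE word, 49 bases before the start, and no GAS word. Gbp5 and Gbp7 each held 1 ISRE and 2 GAS words, and Igtp held 1 of each. Irf1 held a GAS word, ending 81 bases before the start, and no ISRE word in this entry. Of the 28 matched members, 16 (57.1%) held the ISRE word and 7 (25%) the GAS word, and 10 held neither. Among all 27025 genes with a promoter entry, 3.46% held the ISRE word and 8.13% the GAS word, and among all 32851 promoter entries 2.98% and 7.02% did. A match describes letters in a window and says nothing on binding in these cells.

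The matrices held 3315 and 3700 barcodes, with 0 barcodes in common, and 20743037 and 25314154 UMIs. After filters on depth, mitochondrial share and doublets, 3089 and 3467 cells were kept, with a median of 5669 and 6568 UMIs per cell. Classes were gated on marker genes that include none of the members, and were then checked on other markers. All 6 check markers passed in macrophage-like cells, all 5 in T-like, NK-like and B-like cells and all 4 in type 1 and migratory dendritic-like cells (DC-like). In classical monocyte-like cells 4 of 6 passed, with Itgal and Ly6c2 missed, in patrolling monocyte-like cells 4 of 5, and in type 2 DC-like cells 3 of 4, with Zbtb46 missed. No gate took 13.4% of cells, and 3.04% fitted more than 1 gate. Of 4723 macrophage-like, monocyte-like, type 2 DC-like and ungated cells, 493 (10.4%) had C1q levels within 1.5-fold of the macrophage threshold.

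The members were a small share of the transcriptome, with 40591 UMIs or 0.0907% of all UMIs in kept cells. Bst2, a tetherin that holds budding virus at the cell surface, gave 15.2% of member UMIs. Gbp7, Irf1, Ifi204 and Gbp2 followed with 9.18%, 7.51%, 6.81% and 6.29%, so that 5 genes gave 45.0%. By role, the 8 interferon-inducible GTPases with a row gave 33.3%, the 8 antiviral effectors 28.4%, the 9 RNA and DNA sensors 16.3% and the 4 transcription factors 15.3%. The ISG15 system (Isg15, Usp18) gave 3.61% and the 4 IFIT genes 3.04%. These shares compare end-tag counts, in which transcript length does not enter, and capture may still differ between genes. Levels below are in CPM, a gene's UMIs as a share of all UMIs of the class, so that 100 CPM is 1 UMI in 10000. In 7 classes of at least 30 cells per hashed sample, 20 members reached 20 CPM in both hashed samples of some class. Over all cells, 7 members stayed under 5 CPM, among them Ifi44, with a UMI in 19 cells.

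Summed over members, macrophage-like cells (1317 and 1997 cells) had 11.4 and 9.10 member UMIs per 10000 UMIs, the first value of a pair being hashed sample 1 and the next hashed sample 2. Counting intervals at 95% were 11.1 to 11.6 and 8.95 to 9.26. Classical monocyte-like cells (72 and 78 cells) had 6.89 and 12.9, below the macrophage-like level in hashed sample 1 and above it in hashed sample 2. Type 2 DC-like cells (110 and 225 cells) had 4.92 and 6.29, below macrophage-like cells in both. CD4 T-like cells (298 and 121) had 8.02 and 9.30, and CD8 T-like cells (293 and 168) 9.38 and 9.67. Other T-like cells, with neither or both of the Cd4 and Cd8 transcripts (340 and 166), had 8.28 and 9.20. The 3 T-like classes therefore lay under macrophage-like cells in hashed sample 1 and beside them in hashed sample 2. Migratory DC-like cells (46 and 30) had 7.40 and 10.2. Smaller classes were type 1 DC-like cells (24 and 33 cells), with 15.1 and 7.61, patrolling monocyte-like cells (18 and 30), with 5.25 and 7.42, NK-like cells (23 and 14), with 7.94 and 5.998, and B-like cells (21 and 24), with 4.19 and 4.51.

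Single cells weighed on the small classes. The richest type 1 DC-like cell held 26.6% and 27.2% of the class's member UMIs, and without it the class had 11.7 and 5.66 per 10000. In classical monocyte-like cells of hashed sample 2, 1 cell held 11.0% of member UMIs, and without it the class had 11.6 per 10000. Macrophage-like cells were hardly moved by their richest cell, at 11.3 and 8.99 without it. Intervals in this text cover counting error only, and cells of 1 hashed sample share their source, so no test was run between classes and no p-value is given.

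**Figure D1:**
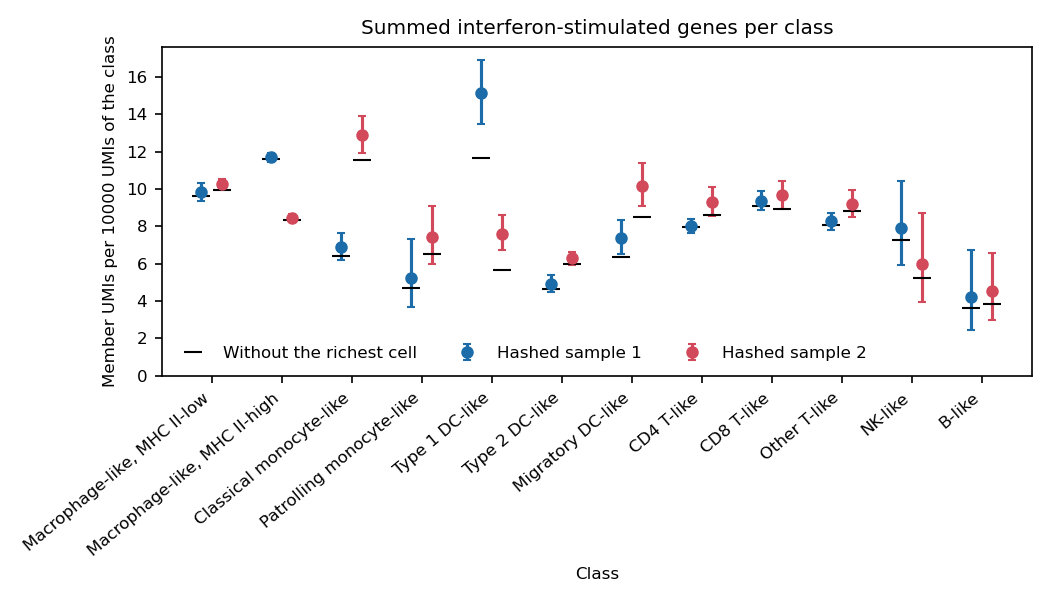
Member UMIs per 10000 UMIs (vertical axis) in each class (horizontal axis), hashed sample 1 in blue and 2 in red, with 95% Poisson intervals; black dashes give the class without its richest cell. Type 2 DC-like cells sit at 4.92 and 6.29, and the red and blue points of classical monocyte-like cells are far apart, at 6.89 and 12.9.

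Transcription factors of the pathway were detected in every large class. Irf1, the factor induced by interferon gamma, stood at 92.97 and 57.4 CPM in macrophage-like cells, 66.2 and 71.3 in CD4 T-like, 76.9 and 63.9 in CD8 T-like and 72.1 and 33.9 in type 2 DC-like cells. Its highest class among the 7 was migratory DC-like, at 100.4 and 84.6 CPM. Irf9, the DNA-binding part of the type I complex, stood at 37.8 and 35.3 CPM in macrophage-like and 12.8 and 29.1 in classical monocyte-like cells, and in hashed sample 2 all 7 classes lay between 24.7 and 35.8. Stat2, its partner, stood at 28.5 and 22.6 CPM in macrophage-like and 18.0 and 4.40 in other T-like cells, and its lowest class in hashed sample 1 was migratory DC-like, at 8.60. Irf7, which amplifies type I interferon production, was sparse. It stood at 16.1 and 12.2 CPM in macrophage-like cells, at 1.06 and 7.07 in type 2 DC-like cells and at 11.0 and 38.9 in classical monocyte-like cells.

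Sensors were led by Ifi204, a DNA sensor of the p200 family, which was high in macrophage-like and monocyte-like cells. Its level was 124 and 183 CPM in classical monocyte-like cells and 115 and 75.8 in macrophage-like cells. T-like classes lay between 1.45 and 11.3 CPM in either hashed sample, and the dendritic classes reached down to that range, with 22.3 and 11.3 CPM in type 2 and 5.74 and 13.5 in migratory DC-like cells. Zbp1, a sensor of Z-form nucleic acid, was spread more evenly, from 18.0 to 55.4 CPM over the 7 classes in hashed sample 1 and from 29.7 to 71.9 in hashed sample 2. CD8 T-like cells had 52.3 and 53.7 CPM of it and type 2 DC-like cells 18.0 and 33.4. The order of classes differed between hashed samples. Ifih1, the RNA sensor MDA5, stood at 11.5 and 2.91 CPM in CD8 T-like and 20.1 and 31.1 in classical monocyte-like cells. Over the 7 classes it ran from 7.71 to 24.4 CPM in hashed sample 1 and from 2.91 to 31.1 in hashed sample 2. The 5 OAS-family genes, oligoadenylate synthetases and their relatives, and Dhx58, the sensor LGP2, did not reach 20 CPM in both hashed samples of any class. Over all cells their levels ran from 1.99 to 9.85 CPM.

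The ISG15 system and IFIT genes, which mark the type I response, were low in bulk sums. Isg15, a ubiquitin-like modifier, stood at 24.1 and 27.9 CPM in macrophage-like cells and at 30.7 and 61.0 in CD8 T-like cells. It reached 40.2 and 57.5 CPM in migratory DC-like cells, but 1 cell gave 12 of the 14 UMIs in hashed sample 1 and 15 of 17 in hashed sample 2. Usp18, which removes ISG15 and restrains the receptor, was at 2.92 and 4.55 CPM in macrophage-like cells. The IFIT genes, which bind foreign RNA, summed to 23.6 and 28.2 CPM in macrophage-like cells and to 51.5 and 71.2 in CD8 T-like cells. Classical monocyte-like cells had 3.66 and 69.9 CPM, in hashed sample 2 within the interval of CD8 T-like cells. Few of those 78 cells gave these UMIs: 14 of Ifit1 came from 4 cells, 14 of Ifit2 from 3 and 8 of Ifit3 from 1. Counting intervals of the CD8 T-like sums, 39.9 to 65.4 and 52.7 to 94.1 CPM, lay above those of macrophage-like cells. Such intervals leave out that single cells carry many UMIs: 1 CD8 T-like cell of hashed sample 2 gave 7 of the 19 Ifit3 UMIs. Type 2 DC-like cells had 7.43 and 5.18 CPM. Ifit3 and Ifit3b are near copies of each other, and reads could have been split between them.

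Among effectors, Bst2 was highest in macrophage-like cells, at 182 and 176 CPM, and lowest in other T-like cells, at 53.3 and 58.7. Trim30a, which restrains inflammatory signalling, had its highest level in CD8 T-like cells, 72.2 and 77.0 CPM, and its lowest in migratory DC-like cells, 5.74 and 40.6. Xaf1, a pro-apoptotic factor, was also highest in CD8 T-like cells, at 28.4 and 39.2 CPM. Ifi35 ran from 24.9 CPM in macrophage-like to 48.4 in CD8 T-like cells of hashed sample 1, and from 23.3 in classical monocyte-like to 57.2 in other T-like cells of hashed sample 2. Rsad2 (viperin), Cmpk2, Ifi44 and Rtp4 reached 20 CPM in both hashed samples of none of the 7 classes.

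The GTPases had no common order across classes. Ifi47, an immunity-related GTPase, was high in T-like cells, at 105 and 123 CPM in CD4 and 125 and 148 in CD8 T-like cells. Macrophage-like cells had 43.5 and 34.0 CPM of it, and type 2 DC-like cells 19.1 and 17.0. Igtp (Irgm3) ran the same way, with 58.3 and 45.3 CPM in CD4 T-like and 23.9 and 18.2 in macrophage-like cells. The guanylate-binding protein genes Gbp2 and Gbp5, whose products attack the membranes of vacuoles and microbes, were highest in migratory DC-like cells. Gbp2 stood there at 163 and 179 CPM and Gbp5 at 74.6 and 112. CD4 T-like cells had 27.0 and 11.3 CPM of Gbp2. Gbp7, their neighbour on chromosome 3, was instead lowest in migratory DC-like cells: it stood at 107 and 113 CPM in CD4 T-like cells, 117 and 92.4 in macrophage-like cells and 2.87 and 6.77 in migratory DC-like cells. Iigp1 stood at 44.4 and 18.1 CPM in macrophage-like cells and at 2.87 and 74.5 in migratory DC-like cells, where 1 cell gave 19 of the 22 UMIs of hashed sample 2.

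**Figure D2:**
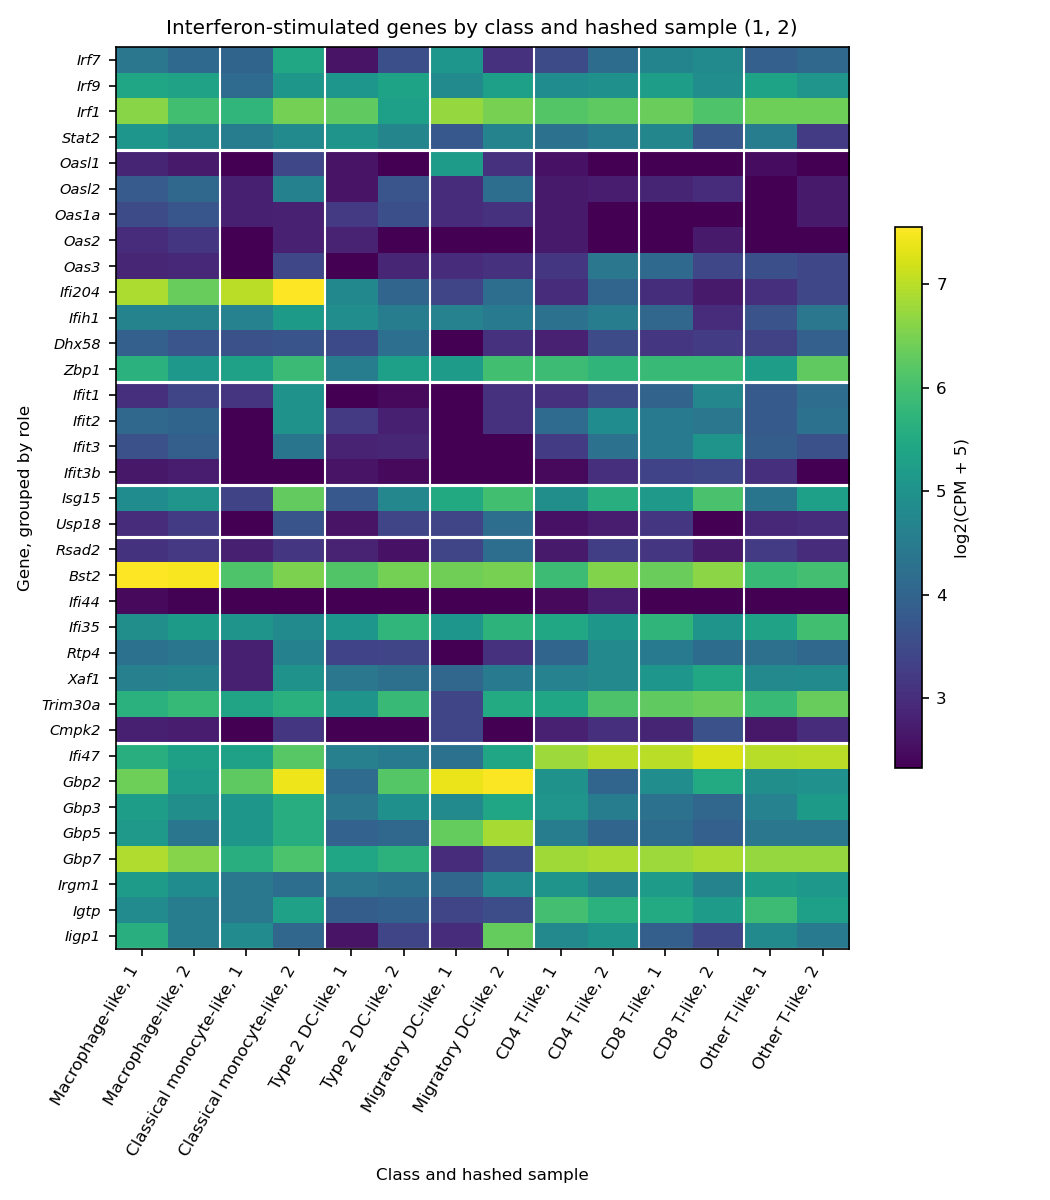
Level of each of the 35 genes (rows, grouped by role) in 7 classes and 2 hashed samples (columns), coloured by log2(CPM + 5). Bst2 is brightest in macrophage-like cells, Ifi204 in the macrophage-like and classical monocyte-like columns, Ifi47 in the T-like columns and Gbp2 in the migratory DC-like columns.

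Between classes, a gene was measured if it reached 20 CPM in at least 1 class and 20 UMIs over both classes in each hashed sample. It was called higher or lower if the ratio of CPM + 5 was at least 1.5-fold in the same direction in both hashed samples. This is a rule of size with 1 repeat, not a test, so that more genes pass it in a single hashed sample. The share of all measured genes that the rule called is given beside each count. A gene under 20 CPM in 1 class of a hashed sample was measured there only through the other class, which favours a call. That limit holds for every called member given below with under 20 CPM on 1 side.

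MHC II-low macrophages are the population named in the study's design, and MHC II-low and MHC II-high macrophage-like cells (217 and 687 against 1100 and 1310 cells) did not differ in any of the 18 measured members by this rule. Over all 5494 measured genes, 4.71% were called, 161 (2.93%) higher and 98 (1.78%) lower in MHC II-low cells. Scaling by trimmed means in place of totals turned that split to 89 higher and 146 lower, and then called 1 member, Irf1, lower, as did thinning to 1000 UMIs. In hashed sample 1 alone Gbp2 and Gbp5 passed as lower, and in hashed sample 2 alone Iigp1 passed as higher. The members' median log2 ratios were -0.24 and 0.14, beside 0.12 and 0.13 over all genes. The sign of the ratio agreed between hashed samples in 8 of the 18 members, 3 above 0 and 5 below.

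Bst2 was higher in MHC II-low cells in both, at 227 and 223 CPM against 172 and 151, ratios of 1.31 (1.17 to 1.48) and 1.47 (1.36 to 1.59) that stayed under the 1.5-fold rule. Trim30a and Gbp7 leaned the same way, with 50.2 and 59.1 against 44.4 and 47.3 CPM, and 127 and 107 against 114 and 84.7 CPM. Irf1 was lower in MHC II-low cells in both, at 67.1 and 44.4 against 98.6 and 64.3 CPM, ratios of 0.681 (0.551 to 0.835) and 0.691 (0.590 to 0.806). Its size, too, was just short of the rule on the log2 scale with the pseudocount. Zbp1 stood at 33.3 and 24.5 against 48.5 and 32.5 CPM, and Gbp3 at 25.7 and 21.3 against 34.9 and 26.8.

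Gbp2 separated the states in hashed sample 1, at 24.5 against 91.8 CPM, a ratio of 0.267 (0.188 to 0.368). In hashed sample 2 it stood at 27.7 against 34.5 CPM, a ratio of 0.803 (0.654 to 0.982). Iigp1 did the reverse, with 40.8 against 45.1 CPM in hashed sample 1 and 27.5 against 13.0 in hashed sample 2. Ifi204 stood at 112 against 116 and at 97.8 against 64.0 CPM. Ifi47 (29.5 against 46.5, then 38.7 against 31.5 CPM), Irgm1 (21.3 against 33.9, then 28.1 against 22.4) and Igtp (19.5 against 24.9, then 21.5 against 16.4) changed side between hashed samples. The other 6 measured members had ratios under 1.5-fold in each hashed sample. Isg15 was at 19.5 and 27.9 against 25.2 and 28.0 CPM, Irf9 at 34.5 and 37.7 against 38.6 and 34.0, and Stat2 at 25.1 and 23.1 against 29.3 and 22.3. Ifi35 was at 22.0 and 33.2 against 25.6 and 29.7 CPM, Ifih1 at 18.2 and 21.9 against 20.8 and 19.4, and Xaf1 at 13.8 and 21.7 against 20.5 and 19.3. In these the MHC II-low cells were the lower side in hashed sample 1 only, apart from Isg15, where hashed sample 2 was level.

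Other pathway genes differed between the states. Cxcl9 was lower in MHC II-low cells, at 16.3 and 11.1 against 252 and 78.8 CPM, as was Cxcl10, at 4.39 and 41.5 against 99.6 and 85.0. Ciita, the master regulator of MHC II genes, was lower at 9.41 and 8.49 against 105 and 131 CPM; it acts directly on the genes used for the split. Tlr7, an RNA sensor of endosomes, was higher, at 154 and 105 against 80.1 and 49.7 CPM. None of the 5 measured receptor genes were called. Immediate-early and heat shock genes moved with the split: 7 of 12 had lower levels in the MHC II-low state, with the list's sum at 21.6 and 21.7 against 36.5 and 41.9 UMIs per 10000. Their part in any result was not tested.

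Macrophage-like and classical monocyte-like cells differed in 2 of 17 measured members, Bst2 and Irgm1, both higher in macrophage-like cells, where the rule called 12.5% of 5532 genes, 7% as higher and 5.48% as lower. Bst2 stood at 182 and 176 against 64.0 and 87.4 CPM, log2 ratios of 1.44 and 0.97. Irgm1, a regulator of the other immunity-related GTPases, stood at 31.7 and 24.4 against 16.5 and 13.6 CPM, but monocyte-like cells gave only 9 and 7 UMIs and both counting intervals reached 1. Member medians pointed in opposite directions, 0.35 in hashed sample 1 and -0.51 in hashed sample 2. Stress genes summed to 33.8 and 34.8 UMIs per 10000 in macrophage-like and 67.4 and 78.2 in monocyte-like cells, and their part was not tested.

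Type 2 DC-like cells were lower than macrophage-like cells in 4 of 15 measured members and higher in none, where the rule called 17.5% of 5533 genes, 6.72% as higher and 10.8% as lower. Ifi204 stood at 22.3 and 11.3 against 115 and 75.8 CPM, log2 ratios of -2.14 and -2.31. Gbp7 stood at 37.1 and 46.2 against 117 and 92.4 CPM, Bst2 at 64.7 and 82.9 against 182 and 176, and Ifi47 at 19.1 and 17.0 against 43.5 and 34.0. In the same comparison 4 of 5 receptor genes were lower in type 2 DC-like cells: Ifnar1, at 50.9 and 48.5 against 126 and 135 CPM, Ifnar2, Ifngr2 and Il10rb. Jak2, the kinase of the gamma receptor, was higher, at 151 and 104 against 24.9 and 22.1 CPM. Stress genes were higher as well, 8 of 12, with a sum of 53.7 and 60.02 against 33.8 and 34.8 UMIs per 10000, and their part was not tested.

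Among dendritic cells, type 1 DC-like cells were higher than type 2 in 4 of 10 measured members and lower in none, where the rule called 17% of 5061 genes, 4.94% as higher and 12% as lower. Stat2 stood at 90.9 and 58.3 against 27.6 and 21.2 CPM, Zbp1 at 90.9 and 64.2 against 18.0 and 33.4, Bst2 at 105 and 152 against 64.7 and 82.9, and Ifi204 at 62.2 and 23.3 against 22.3 and 11.3. Without the richest cell of each class, Ifi204 and Zbp1 were no longer called, and Stat2 and Bst2 were. Tap1, Psmb8 and Psmb9, of MHC class I peptide supply, were also higher.

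Migratory DC-like cells were higher than type 2 DC-like cells in 4 of 12 measured members and lower in 1, where the rule called 31.2% of 5226 genes, 10% as higher and 21.1% as lower. Gbp5 stood at 74.6 and 112 against 10.6 and 11.8 CPM, log2 ratios of 2.35 and 2.80. Gbp2 stood at 163 and 179 against 12.7 and 67.4 CPM. Gbp7 was lower, at 2.87 and 6.77 against 37.1 and 46.2 CPM, from 1 and 2 UMIs in migratory DC-like cells. Isg15 (40.2 and 57.5 against 8.49 and 21.7 CPM) and Zbp1 (31.5 and 57.5 against 18.0 and 33.4) were called as well, but neither without the richest cell of each class. Gbp5 in both hashed samples, and Gbp2, Isg15 and Zbp1 in hashed sample 1, were measured only through migratory DC-like cells. This favours a call as higher. Gbp7 was measured only through type 2 DC-like cells, which favours a call as lower.

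Patrolling and classical monocyte-like cells shared 7 measured members, where the rule called 18.3% of 3466 genes, 8.51% as higher and 9.84% as lower. With trimmed-mean scaling the 295 genes higher and 341 lower became 180 and 574. Irf1 was higher in patrolling cells, at 165 and 171 against 49.4 and 83.5 CPM. Ifi204, at 59.98 and 97.8 against 124 and 183 CPM, Gbp2 and Gbp7 were lower. Patrolling cells gave 3 and 0 UMIs of Gbp2 and 0 and 4 of Gbp7, and without the richest cells only Ifi204 was called.

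Macrophage-like cells and CD4 T-like cells, the other population named in the design, differed in 5 of 18 measured members, where the rule called 42.9% of 6198 genes, 19.8% as higher and 23% as lower. With trimmed-mean scaling the 1230 genes higher and 1426 lower became 1628 and 867. Ifi204 was higher in macrophage-like cells, at 115 and 75.8 against 2.94 and 11.3 CPM. Bst2 was higher at 182 and 176 against 54.9 and 89.1 CPM, and Gbp2 at 79.7 and 32.1 against 27.0 and 11.3. Ifi47 and Igtp were lower, with log2 ratios of -1.18 and -1.72 and of -1.13 and -1.12. The members' called share, 27.8%, was under that of all genes. Interferon ligands were sparse: of 10 genes, Ifng alone was measured, at 98.5 and 71.3 CPM in CD4 T-like cells and 121 and 110.4 in CD8 T-like cells, and Ifnb1 had 0 UMIs in each class named so far. Macrophage-like cells were lower in Ifng, with 3 and 8 UMIs, and higher in 4 of 5 receptor genes, Ifnar1, Ifnar2, Ifngr2 and Il10rb. Jak2 was lower in them.

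Within T-like cells, CD8 and CD4 differed in 2 of 15 measured members, where the rule called 5.11% of 5514 genes, 1.92% as higher and 3.19% as lower. With trimmed-mean scaling the 106 genes higher and 176 lower became 138 and 135. Irf7 was higher in CD8 T-like cells, at 20.8 and 23.2 against 6.37 and 13.0 CPM, and not called without the richest cell of each class. Iigp1 was lower, at 9.99 and 5.81 against 22.6 and 27.5 CPM. Irf7 and Iigp1 each passed the 20 CPM minimum only through the class where the gene was higher, which favours the call. Foxp3-detected CD4 T-like cells (31 and 12 cells) differed from the other CD4 T-like cells in 2 of 8 measured members, where 7.34% of 4073 genes were called, 126 (3.09%) higher and 173 (4.25%) lower (72 and 286 with trimmed-mean scaling). Gbp7 was higher, at 199.96 and 173 against 97.3 and 104 CPM, a call that trimmed-mean scaling removed, and Trim30a was lower, at 9.998 and 37.1 against 40.8 and 67.1, from 2 and 3 UMIs. Ifng was lower in the Foxp3-detected cells.

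NK-like and CD8 T-like cells differed in 5 of 11 measured members by the rule, all lower in NK-like cells, where 19% of 4413 genes were called, 317 (7.18%) higher and 522 (11.8%) lower (112 and 1033 with trimmed-mean scaling). With 64256 and 45014 UMIs in 23 and 14 NK-like cells, a count of 0 allows up to 46.7 CPM in hashed sample 1. Bst2 in hashed sample 1, with 0 UMIs against 76.9 CPM in CD8 T-like cells, was the only ratio of the 5 members whose counting interval excluded 1. Igtp had 0 UMIs in both, Bst2 0 and 1, Isg15 0 and 1, Xaf1 1 and 0, and Trim30a 1 and 2. Thinned to 1000 UMIs per cell, 0 members were called.

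Within a class, member UMIs were unevenly shared among cells. In macrophage-like cells thinned to 1000 UMIs each (1264 and 1932 cells), the mean was 1.23 and 0.931 member UMIs, and 40.7% and 50.1% of cells had 0. The variance was 2.40 and 3.10 times the mean, where independent counting gives a ratio of 1. The 10% of cells with most member UMIs held 41.1% and 47.9% of them, and 8 and 11 cells (0.633% and 0.569%) had 10 or more. Unthinned, 32 and 43 macrophage-like cells carried UMIs of at least 15 different members. GTPases had the widest spread among well-detected roles, with ratios of 2.21 and 2.26, against 1.10 and 1.24 for effectors and 1.23 and 1.25 for transcription factors. IFIT genes, at a mean of 0.0253 and 0.0295, had 1.54 and 2.83. CD8 T-like cells of hashed sample 2 had a ratio of 4.22, against 1.90 in hashed sample 1, and there 1 cell held 20 member UMIs of 1000.

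Isg15 and Irf7 UMIs were more frequent in cells with an IFIT UMI than in cells without it. In macrophage-like cells thinned to 2000 UMIs (1201 and 1827 cells), an IFIT UMI was found in 31 and 40 cells. Of those, 25.8% (11.9 to 44.6) and 40% (24.9 to 56.7) also had an Isg15 UMI, against 3.08% and 2.29% of cells without an IFIT UMI. Irf7 was found in 22.6% and 25% of IFIT-positive cells and in 2.22% and 1.57% of the others. Ifi204 followed, at 54.8% and 45% against 19.7% and 11.1%. Irf1 did not separate them, at 19.4% (7.45 to 37.5) and 12.5% (4.19 to 26.8) against 17.5% and 9.68%. Bst2 separated cells weakly: an IFIT UMI was found in 4.50% and 4.47% of Bst2-positive cells and in 1.84% and 1.35% of the others. GTPases went with IFIT UMIs as well. A UMI of Irgm1, Igtp, Iigp1 or Ifi47 was found in 51.6% and 52.5% of IFIT-positive cells and in 20.3% and 12.9% of the others. An IFIT UMI was found in 5.96% and 5.25% of cells with a UMI of Gbp2, Gbp3, Gbp5 or Gbp7. Among cells without any of these, 0.982% and 1.22% had an IFIT UMI. Free RNA or missed doublets may set a floor under such shares, which was not tested. C1qa, a macrophage gene, was found in 26.4% and 25.7% of CD4 T-like cells at the same depth. Among members, Ifi204 was found in 0.685% and 3.54% of CD4 T-like cells and in 20.6% and 11.9% of macrophage-like cells. Before thinning these shares were 1.68% and 5.79% at median depths of 5051.5 and 3698 UMIs, and 42.4% and 29.9% at 6317 and 6904.

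**Figure D3:**
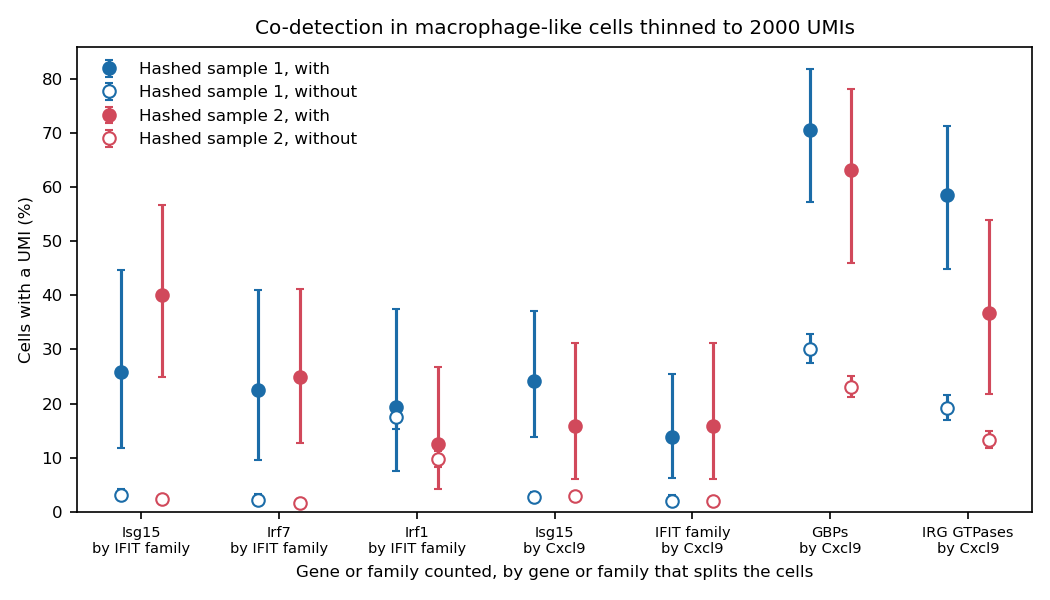
Share of macrophage-like cells, thinned to 2000 UMIs, with a UMI of the gene or family named on the first line of each label (vertical axis, percent), in cells with (filled) and without (open) a UMI of the gene or family on the second line; bars are 95% exact binomial intervals. Isg15 lies at 25.8% and 40% in IFIT-positive cells against 3.08% and 2.29% in the others, while Irf1 overlaps.

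Cxcl9, induced by interferon gamma and no member of the set, marked macrophage-like cells rich in members; this split was chosen after values were seen. Cells with a Cxcl9 UMI (90 and 68) had 28.1 and 26.2 member UMIs per 10000, against 9.83 and 8.39 in the other 1227 and 1929 cells. Of 23 measured members, 17 were higher in Cxcl9-detected cells and none lower, where the rule called 3.51% of 5473 genes and 2.41% as higher. Ifit2, Ifit3, Irf7, Rtp4 and Xaf1 stayed under 20 CPM in the other cells of both hashed samples. They were measured only through the cells where they were high, which favours a call as higher. Isg15 in hashed sample 1 and Gbp2, Gbp5, Igtp and Iigp1 in hashed sample 2 passed the minimum that way too. Gbp2 stood at 576 and 331 against 34.3 and 19.7 CPM, log2 ratios of 3.89 and 3.76. Iigp1 followed at 196 and 178 against 30.5 and 11.4 CPM, and Gbp5 at 113 and 118 against 23.2 and 11.5.

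Genes known best from the type I response were higher as well, though Irf7 and Ifit2 were measured only through the Cxcl9-detected cells. Isg15 stood at 92.5 and 164 against 17.9 and 22.3 CPM, Irf7 at 63.0 and 57.1 against 11.8 and 10.3, and Ifit2 at 48.2 and 50.2 against 8.33 and 9.34. Irf1 stood at 209 and 173 against 82.4 and 52.6 CPM, Zbp1 at 161 and 116 against 35.3 and 26.2, and Ifi47 at 119 and 135 against 36.5 and 29.8. The 6 measured members not called were Bst2 (241 and 222 against 177 and 174 CPM), Irf9, Stat2, Trim30a, Ifi35 and Ifih1. Irf9 was nearest to parity, with log2 ratios of -0.11 and 0.10. Cxcl9-detected cells were deeper, with a median of 8124.5 and 8048.5 UMIs against 6263 and 6868, and the part of depth was not tested. Thinned to 2000 UMIs, 4.83% and 2.08% of macrophage-like cells had a Cxcl9 UMI, beside 1.37% and 2.65% of CD4 T-like cells. In hashed sample 2 the macrophage-like share was therefore not above that of CD4 T-like cells. The CD4 T-like share there rested on 3 of 113 cells (0.551% to 7.56%). CD8 T-like cells at that depth had a Cxcl9 UMI in 0 of 274 and 0 of 153 cells. Their C1qa share was 33.9% and 34.0%. Cxcl9 UMIs in either class may come from free RNA or missed doublets, which was not tested. Splitting on Cxcl10 instead (111 and 146 cells) gave 14 of 23 members higher and none lower, where the rule called 2.21% of 5420 genes. Isg15, Ifit2, Ifit3, Irf7 and Rtp4 were measured there only through the Cxcl10-detected cells. Gbp5, Igtp and Iigp1 passed the minimum that way too in hashed sample 2, at 12.6, 16.3 and 11.8 CPM in the other cells. Thinned to 2000 UMIs, 5.33% and 3.89% of macrophage-like cells had a Cxcl10 UMI, beside 9.25% and 3.54% of CD4 T-like cells. In hashed sample 1 the macrophage-like share was thus below that of CD4 T-like cells. CD8 T-like cells had a Cxcl10 UMI in 3.28% and 4.58%.

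**Figure D4:**
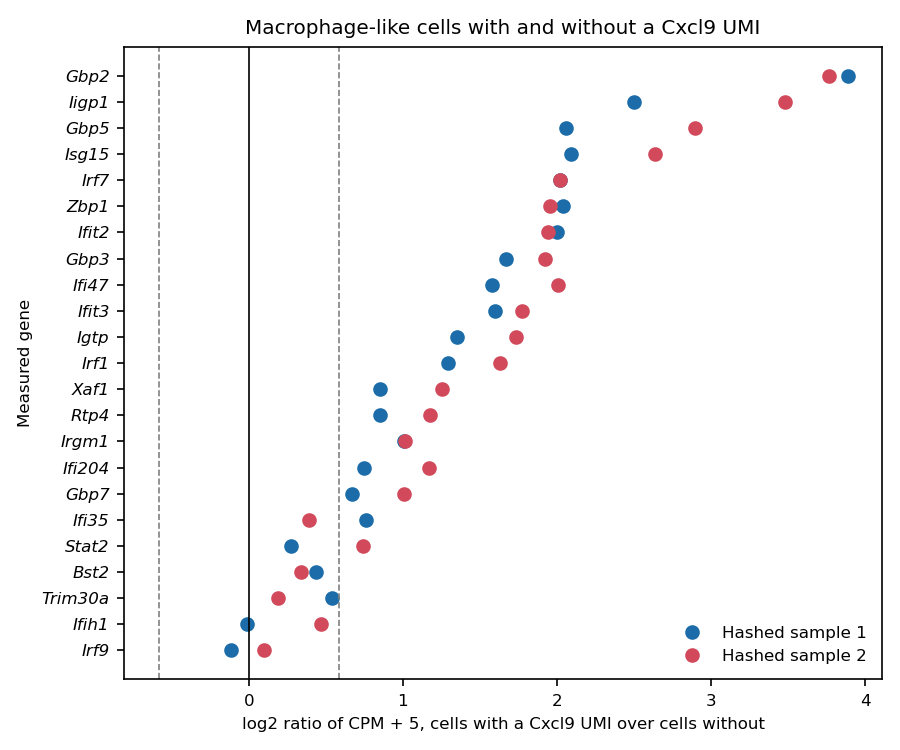
Log2 ratio of CPM + 5 (horizontal axis) between macrophage-like cells with and without a Cxcl9 UMI for the 23 measured members (vertical axis), hashed sample 1 in blue and 2 in red; dashed lines mark 1.5-fold. Gbp2 is at 3.89 and 3.76, and Irf9 lies at -0.11 and 0.10.

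Genes outside the set that went with it were sought by ranking macrophage-like cells, thinned to 2000 UMIs, on member UMIs and setting the highest 10% (120 of 1201 and 183 of 1827 cells) against the rest. Of 5520 measured genes outside the members, 151 (2.74%) were higher and 69 (1.25%) lower; the ranking and the levels come from the same cells, so this is a description. Those with the largest mean log2 ratio included Cxcl9, Cxcl10, Serpina3g, Ifi211, Slfn5, Gbp4, Slamf8, Slfn1, Ifi209, Cd274, Phf11d, Calhm6, AW112010 and Phf11b. Cxcl9 stood at 1829 and 292 against 26.8 and 18.2 CPM, and Cd274, the checkpoint ligand PD-L1, at 58.3 and 32.8 against 10.6 and 3.04. Of a list of other interferon-induced genes, 24 of 28 measured were higher and none lower, with median log2 ratios of 1.20 and 1.27 beside 0.01 and 0.03 over all genes. In the list of interferon gamma chemokines and antigen presentation, 5 of 8 were higher, namely Cxcl9, Cxcl10, Tap1, Psmb9 and Nlrc5. None of 5 receptor genes and none of 12 stress genes were higher or lower, with stress medians of 0.01 and -0.23.

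The hashed samples differed from each other in Irf1 and in 3 GTPases of macrophage-like cells. Hashed sample 2 was at least 1.5-fold lower than hashed sample 1 in 4 of 19 measured members and higher in none, where the rule called 2.93% of 5665 genes; here no repeat exists. Gbp2 stood at 79.7 and 32.1 CPM in hashed samples 1 and 2, Iigp1 at 44.4 and 18.1, Gbp5 at 30.7 and 15.7 and Irf1 at 92.97 and 57.4. Isg15, at 24.1 and 27.9 CPM, and Bst2, at 182 and 176, were near level. Split by state, MHC II-high cells had 4 of 19 members lower in hashed sample 2 (2.88% of 5556 genes called): Gbp2 stood at 91.8 and 34.5 CPM, a ratio of 0.375 (0.328 to 0.429), and Ifi204, Gbp5 and Iigp1 were the others. In MHC II-low cells Gbp2 stood at 24.5 and 27.7 CPM, and of 19 measured members Rtp4 alone was called, higher in hashed sample 2 (6.41% of 5931 genes called). The difference between the states was not tested. Cxcl9-detected cells were also fewer in hashed sample 2, at 4.05% (3.05 to 5.26) against 7.64% (6.14 to 9.37) of MHC II-high cells. In all macrophage-like cells without a Cxcl9 UMI, Gbp2 stood at 34.3 and 19.7 CPM, a ratio of 0.574, beside 0.402 with all cells. Iigp1 stood there at 30.5 and 11.4 CPM (0.374, beside 0.408) and Gbp5 at 23.2 and 11.5. In MHC II-high cells without a Cxcl9 UMI the Gbp2 ratio was 0.573, beside the 0.375 above. Cells whose Cxcl9 was not captured remain among these. The part of Cxcl9-detected cells in the differences was not tested.

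**Figure D5:**
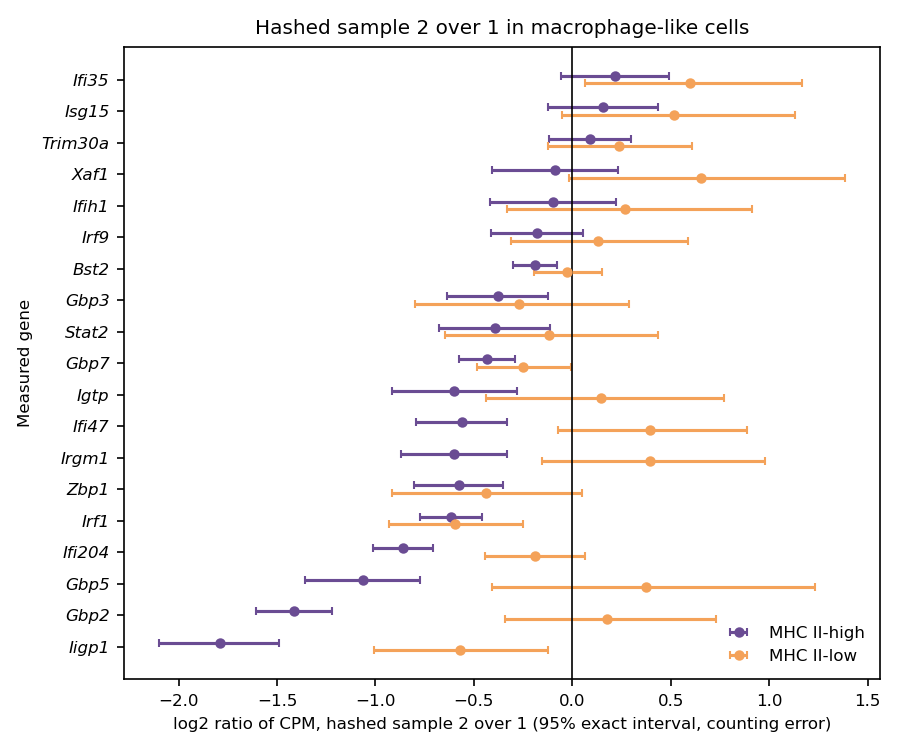
Log2 ratio of CPM of hashed sample 2 over hashed sample 1 (horizontal axis) for the 19 members measured in MHC II-high macrophage-like cells (vertical axis), in MHC II-high (purple) and MHC II-low cells (orange), with exact 95% intervals that cover counting error only. In MHC II-high cells Iigp1, Gbp2, Gbp5 and Ifi204 lie farthest left, and the MHC II-low points of Gbp2 and Gbp5 lie right of 0.

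In other classes several members were higher in hashed sample 2. In classical monocyte-like cells 7 of 17 measured members were higher in hashed sample 2 and none lower, where the rule called 18.8% of 5421 genes. Isg15 stood there at 5.49 and 73.8 CPM, from 3 and 38 UMIs, of which 1 cell gave 11 of the 38. Gbp2 stood at 71.3 and 165 CPM, with 34 of 85 UMIs of hashed sample 2 in 1 cell. In type 2 DC-like cells 5 of 13 were higher and 2 lower (8.74% of 5505 genes called), and Gbp2 was at 12.7 and 67.4 CPM, with 46 of 143 UMIs in 1 cell. In CD4 T-like cells 5 of 17 were higher, among them Isg15 (25.01 and 43.7 CPM), Bst2 (54.9 and 89.1) and Trim30a (37.8 and 63.2), and Gbp2 was lower (11.6% of 5932 genes called). In CD8 T-like cells 3 of 17 were higher, with Isg15 at 30.7 and 61.0 CPM, and 2 lower (12% of 5857 genes called). Isg15 was higher in hashed sample 2 in all 7 large classes, though by less than 1.5-fold in macrophage-like and migratory DC-like cells. Of the 25 members that reached 20 CPM in some class, 3 (12%) were higher in hashed sample 2 in all 7 classes and none lower in all 7, beside 2.68% and 2.00% of 8034 genes at that level. The 3 were Isg15, Trim30a and Ifit1. Ifit1 reached 20 CPM in hashed sample 2 only, as in CD8 T-like cells (10.8 and 21.8 CPM), which favours counting it as higher there. In type 2 and in migratory DC-like cells Ifit1 had 0 and 1 UMIs.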

How the data were processed

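Single-cell UMI counts per gene and barcode were used as deposited by the authors. They were made with Cell Ranger 6.1.1, per the file headers, while Cell Ranger 6.0, build mm10 and Seurat 4.3.0 are listed per the submitters' processing notes. No expression values of the spatial section were analysed here, and 0 columns belonged to other samples.

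Barcodes needed 200 genes, 500 UMIs and a mitochondrial share no higher than 10% (414 were removed). Scrublet (scanpy 1.11.5) and hashtag counts removed 45 further cells as doublets (0.682%). Cells were gated on marker genes other than the members. Macrophage-like cells needed 50 UMIs of C1qa, C1qb and C1qc per 10000, and MHC II-low meant fewer than 40 per 10000 from H2-Eb1, H2-Ab1 and H2-Aa together. A doublet caller marking so few cells may have missed some.

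Counts were summed per class and hashed sample, scaled to CPM, and compared as log2(CPM + 5). A gene was measured at 20 CPM in a class and 20 UMIs over both classes, and called at 1.5-fold in both hashed samples. Intervals are at 95% (exact Poisson, exact binomial or exact conditional). Thinning drew 1000 or 2000 UMIs per cell with seed 1. No p-value was computed, since the labels do not give the hashed samples as separate animals. Python 3.11.15, numpy 2.4.6, scipy 1.17.1, pandas 2.3.3 and matplotlib 3.10.9 were used.

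The members, gene lists and rules were chosen with earlier results of these data known. Values are given for all members measured between the macrophage states, for called members of each comparison, for the highest and lowest class of measured members (by the mean of the hashed samples), and for genes among the 15 leading the ranking of cells; further members are named by level. From the pathway lists, values of a single gene are not reported here. Alternatives covered pseudocount, expression minimum, trimmed-mean scaling, gate levels, doublets, thinning and single hashed samples.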

Additional observations from a re-analysis of the deposited data

Results flagged for a closer look

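The 4 members named here had hashed-sample ratios that were at least 1.5-fold in opposite directions in different classes, with counting intervals that exclude 1. Igtp also had opposite ratios, higher in classical monocyte-like (2.12) and lower in other T-like cells (0.618), but the interval of the first reached 1. The difference between classes was not tested, and with 1 hashed sample on each side there is no repeat. Irf1 was 0.617-fold in hashed sample 2 relative to hashed sample 1 in macrophage-like cells and 0.470-fold in type 2 DC-like cells, but 1.69-fold in classical monocyte-like cells. Gbp2 was 0.402-fold in macrophage-like and 0.420-fold in CD4 T-like cells, against 2.32-fold in classical monocyte-like and 5.29-fold in type 2 DC-like cells. In both of the latter classes 1 cell of hashed sample 2 carried a large part of the UMIs, 34 of 85 and 46 of 143. Ifi35 was 0.570-fold in CD8 T-like cells, 1.62-fold in other T-like cells and 1.71-fold in type 2 DC-like cells. Iigp1 was 0.408-fold in macrophage-like cells and 26.0-fold in migratory DC-like cells, where it rests on 1 against 22 UMIs, 19 of them in 1 cell.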

How the results depend on the processing

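None of the members called in the comparisons changed direction under any alternative run. Changes of pseudocount or minimum, and use of 1 hashed sample, cannot turn a call, so for these the result was fixed in advance. Counts of called members ranged over the alternatives, against the reported count, from 0 to 2 (reported 0) between macrophage states, 1 to 13 (2) for macrophage-like against classical monocyte-like cells, 3 to 13 (4) for type 2 DC-like against macrophage-like, 1 to 9 (4) for the monocyte-like classes, 2 to 9 (4) for type 1 and 2 to 8 (5) for migratory against type 2 DC-like, 3 to 8 (5) for macrophage-like against CD4 T-like, 0 to 6 (2) for CD8 against CD4 T-like, 0 to 12 (2) for Foxp3-detected cells and 0 to 8 (5) for NK-like cells. The highest count of each comparison came from using 1 hashed sample, where no repeat is required, and for NK-like cells also from trimmed-mean scaling.

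The median log2 ratio of members, averaged over hashed samples, moved beyond the spread between them as follows; the cause was not tested. At a 50 CPM minimum it was 0.23 between macrophage states, -1.23 for type 2 DC-like against macrophage-like, 1.20 for type 1 and 1.34 for migratory against type 2 DC-like and -0.47 for NK-like cells. Adding a pseudocount of 10 CPM gave 0.22, -1.15, 1.10, 1.22 and -0.44. Migratory against type 2 DC-like was 0.21 with a pseudocount of 20, 0.093 with no CPM minimum, 0.41 with a C1q level of 25 and 0.032 without the richest cells. NK-like against CD8 T-like was -0.78 and -0.52 with pseudocounts of 1 and 20, -0.71 with no minimum, -1.08 with trimmed-mean scaling, -0.40 after thinning and -0.90 without the richest cells. Macrophage-like against CD4 T-like was 0.34 with trimmed-mean scaling, which moved the median of all genes from -0.19 to 0.10, and CD8 against CD4 T-like was -0.058 after thinning. With 1 hashed sample, medians ran from 0.62 to 1.02 for type 1 and 0.15 to 0.55 for migratory against type 2 DC-like, -0.21 to 0.24 for macrophage-like against CD4 T-like and -0.52 to -0.051 for NK-like cells. Macrophage-like cells at the threshold of member UMIs were 3.57% at 5 and 0.209% at 15, and the genes higher in the ranked cells were 250 for the top 5% and 83 for the top 20%.

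No paired analysis was possible because all single cells belong to 1 deposited sample and no test between groups was made. Alternatives without the richest cells, without Cxcl9-detected cells, and with 50 CPM and a pseudocount of 10 together were chosen after seeing the data. Small classes limit precision: a count of 0 allowed up to 46.7 CPM in NK-like cells of hashed sample 1.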

Other observations

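Iigp1 had its highest T-like level in Foxp3-detected CD4 T-like cells, at 75.0 and 99.0 CPM against 16.9 and 16.8 in the other CD4 T-like cells; this was noticed after values were seen. It rests on 15 and 8 UMIs in 5 and 3 cells, of which 1 cell gave 5 in each hashed sample, and it was below the UMI minimum of the comparisons. Gbp2 in type 1 DC-like cells stood at 244 and 75.8 CPM, against 12.7 and 67.4 in type 2 DC-like cells, so that the dendritic classes were apart in hashed sample 1 and close in hashed sample 2.

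Peptide supply genes of the interferon gamma list were higher in both type 1 and migratory DC-like cells than in type 2 DC-like cells. Psmb8, an immunoproteasome subunit, stood at 976 and 1085 CPM in type 1 against 447 and 455 in type 2 DC-like cells. Tap1, which carries peptides into the endoplasmic reticulum, stood at 225 and 198 against 87.0 and 69.3 CPM. The type 2 DC-like values are shared by both comparisons. Cells that no gate took had 7.07 and 7.46 member UMIs per 10000, with C1qa at 388 and 390 CPM.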
